A study of Mus musculus with 2 samples.

Results

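Arginine metabolism and alternative activation were followed through 8 genes, Arg1, Arg2, Nos2, Odc1, Ass1, Chil3, Retnla and Mrc1. They were chosen by name and make up 8 of the 24785 genes listed in at least 1 of the 2 libraries. CD45+ leukocytes that were alive were taken by sorting from naïve lungs and from BLM-injured lungs on day 15 after bleomycin (BLM) was given into the trachea, and were profiled with the BD Rhapsody whole transcriptome assay. All mice were adult wild-type C57BL/6N. Each group was a single library holding cells pooled in equal number from 3 mice, and the naïve mice were untreated, so no vehicle control stands beside BLM. No cell could be traced to its mouse. Every difference below is therefore a difference between 2 libraries with no replicate check, and no p-value was computed. The intervals in brackets are 95% intervals that cover counting error only, exact Poisson for levels, exact binomial (Clopper-Pearson) for shares, and exact conditional for ratios. They leave out the spread between mice and between libraries, and UMIs (counted molecules) of one cell are not independent of each other.

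Macrophages can use arginine in 2 opposed ways. Arginase splits it into urea and ornithine, from which polyamines and proline are made, whereas inducible nitric oxide synthase turns it into nitric oxide and citrulline. Arg1 encodes the cytosolic arginase and Arg2 the mitochondrial one, Nos2 the inducible nitric oxide synthase, Odc1 the ornithine decarboxylase that starts polyamine synthesis, and Ass1 the argininosuccinate synthase that rebuilds arginine from citrulline. Chil3 (the chitinase-like protein Ym1), Retnla (the secreted protein RELMα) and Mrc1 (the mannose receptor CD206) are the classical mouse marker genes of macrophages activated by IL-4 and IL-13.

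The BLM library held 4714 barcodes with 22490782 UMIs and the naïve library 4062 barcodes with 18019004 UMIs. Barcodes with fewer than 200 genes or with over 15% of UMIs from mitochondrial genes were dropped, which left 4526 BLM cells (median 2437 UMIs) and 3925 naïve cells (median 2759 UMIs). The libraries had 22 barcodes in common. Cells were sorted into classes by marker genes, among which none of the 8 genes stood. The class names mean cells that look like that type by these markers. Of the cells kept, 519 in BLM (11.5%) and 328 in naïve (8.36%) met no class and are called ungated. C1q macrophages, the lung macrophages that express complement C1q, numbered 404 in BLM and 67 in naïve, and alveolar macrophages 160 and 648. A further 255 BLM cells and 24 naïve cells showed markers of a macrophage list and of another list of the same lineage without a clear lead, and are called mixed-marker macrophages. The macrophage classes of the BLM library were not cleanly apart, since 213 of its 404 C1q macrophages carried 3 or more alveolar markers and 118 of its 160 alveolar macrophages 3 or more C1q markers. Ratios between libraries were taken in the 11 classes that had 30 or more cells in both.

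The 8 genes are protein-coding genes on 6 chromosomes of mouse build GRCm38. Arg1 lies at chr10:24915221-24927484, Arg2 at chr12:79130777-79156301, Odc1 at chr12:17544794-17551505, Nos2 at chr11:78920787-78960254, Ass1 at chr2:31470207-31520672, Mrc1 at chr2:14229392-14332057, Chil3 at chr3:106147554-106167564 and Retnla at chr16:48842551-48844461. RefSeq promoter windows (GRCm38.p6, from 250 bases before to 50 after the annotated start) were matched for 5 of the 8, which were Odc1, Ass1, Chil3, Retnla and Mrc1. The windows of the 3 marker genes of alternative activation are shown because these genes moved in unlike ways between the libraries. Capitals mark the letters TATAAA, as in a TATA box, and TTCNNNNGAA, the spaced palindrome known for binding STAT6, both searched on both strands. The windows are Chil3 on the minus strand at chr3:106167515-106167814, Retnla on the plus strand at chr16:48842359-48842658 and Mrc1 on the plus strand at chr2:14229164-14229463.
Chil3: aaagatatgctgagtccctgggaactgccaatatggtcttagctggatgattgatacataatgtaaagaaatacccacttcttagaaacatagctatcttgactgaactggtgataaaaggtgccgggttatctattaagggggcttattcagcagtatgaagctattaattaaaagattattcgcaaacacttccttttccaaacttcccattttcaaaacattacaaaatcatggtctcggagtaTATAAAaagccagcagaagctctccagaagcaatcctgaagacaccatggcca
Retnla: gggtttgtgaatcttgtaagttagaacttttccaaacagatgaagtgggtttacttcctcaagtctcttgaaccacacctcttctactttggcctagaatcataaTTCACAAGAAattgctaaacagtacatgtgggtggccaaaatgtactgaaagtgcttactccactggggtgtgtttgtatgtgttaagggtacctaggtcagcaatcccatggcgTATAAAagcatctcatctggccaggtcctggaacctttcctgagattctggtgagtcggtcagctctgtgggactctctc
Mrc1: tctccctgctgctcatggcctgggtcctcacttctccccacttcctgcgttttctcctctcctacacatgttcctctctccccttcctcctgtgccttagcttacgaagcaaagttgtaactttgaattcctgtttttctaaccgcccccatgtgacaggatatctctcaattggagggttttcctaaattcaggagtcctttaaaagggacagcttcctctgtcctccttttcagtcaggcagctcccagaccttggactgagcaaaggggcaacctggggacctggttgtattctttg
The Retnla window held both, with TATAAA beginning 30 bases and TTCNNNNGAA beginning 145 bases before the start. In the Chil3 window TATAAA began 3 bases before the annotated start and TTCNNNNGAA was not found, and the windows of Mrc1, Odc1 and Ass1 held neither. Among all 32851 windows of this length, 13.62% held TATAAA and 6.953% held TTCNNNNGAA. A match of letters describes the sequence and is neither a binding site nor a cause.

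Arg1 was the member that set the libraries apart. It was counted 12240 times in the kept BLM cells and 170 times in the kept naïve cells, which is 553 against 9.59 counts per 1000000 UMIs (CPM). In C1q macrophages it was 972 CPM [943, 1002] in BLM, from 4232 UMIs, and 9.08 CPM [1.87, 26.5] in naïve, from 3 UMIs that all lay in 1 cell. The log2 ratio of BLM to naïve was 6.74 [5.19, 9.02]. Arg1 thus ran through the injured macrophages and was all but uncounted in the naïve ones. The 3 macrophage classes together held 8350 Arg1 UMIs in 819 BLM cells, or 68.2% of all Arg1 UMIs of that library, against 5 UMIs in 739 naïve cells. The ungated BLM cells held a further 2399 UMIs (19.6%), at 698 CPM.

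**Figure D1:**
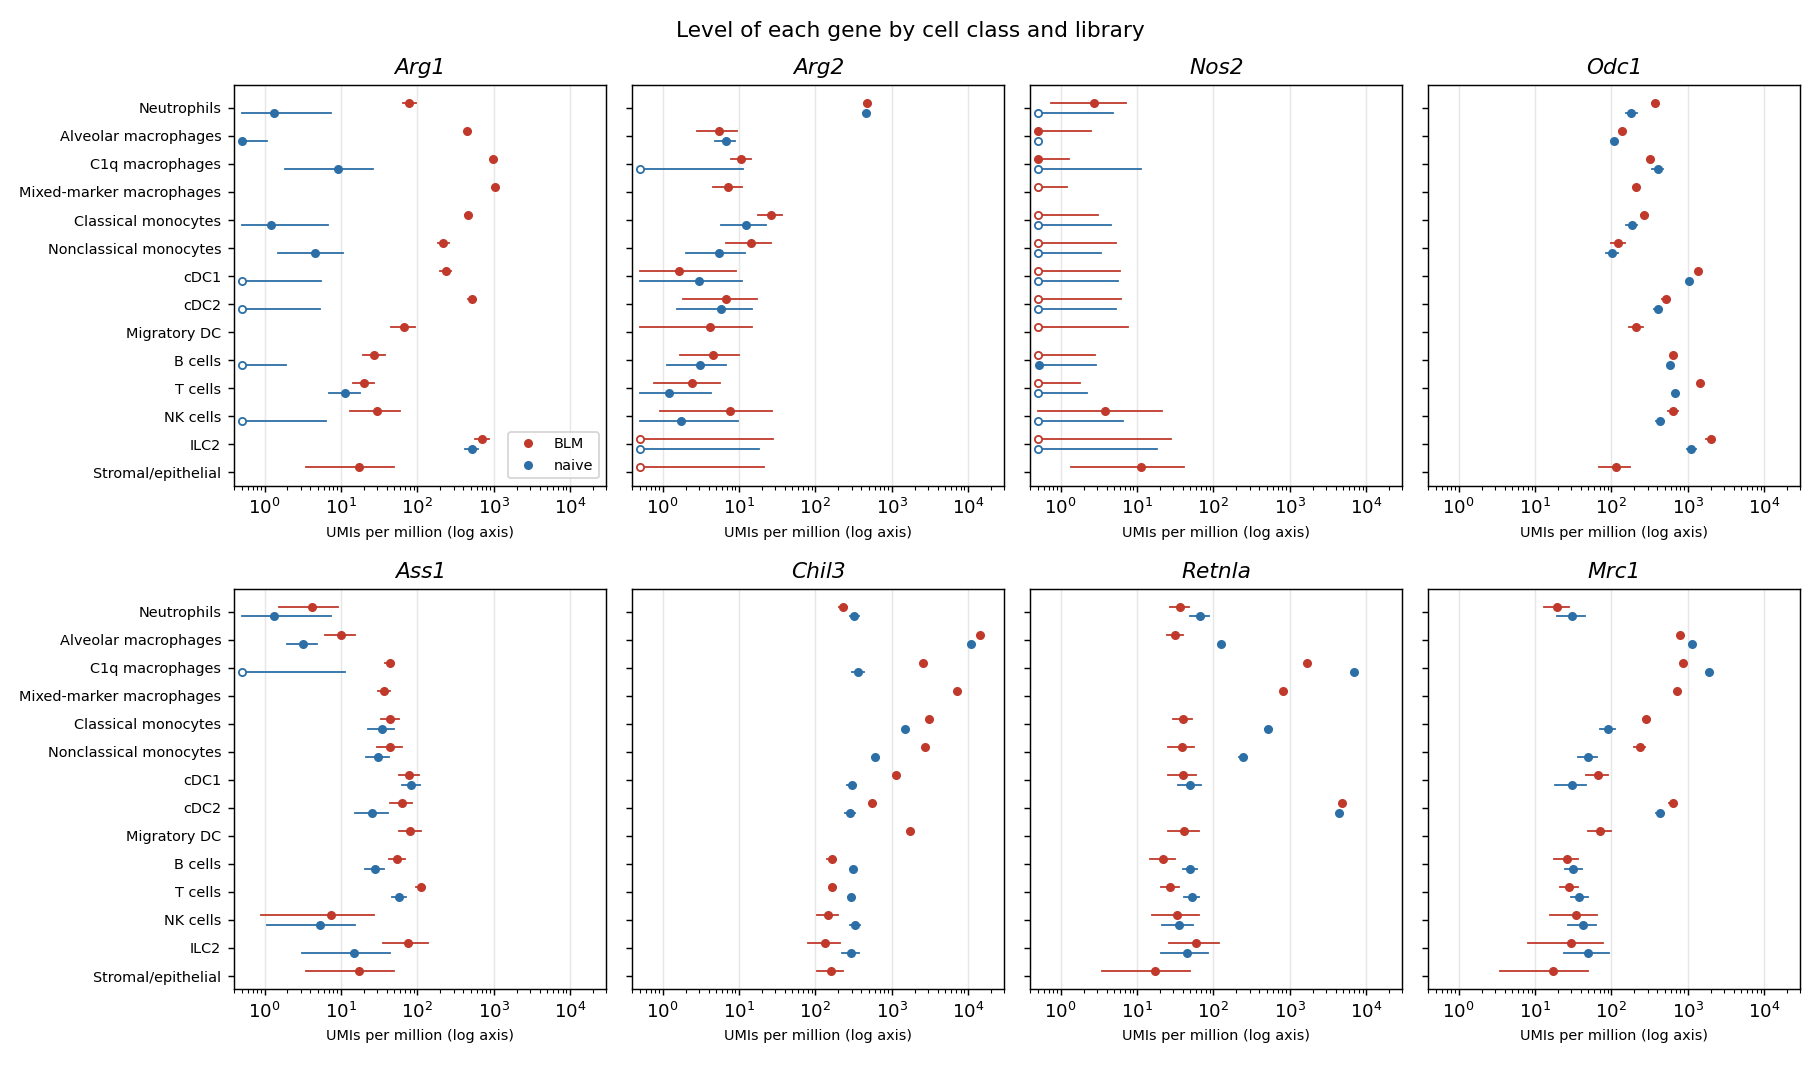
Level of each of the 8 genes (horizontal axis, counts per 1000000 UMIs, log scale) in each cell class (vertical axis) with 30 or more cells in the library, BLM and naïve side by side, with 95% Poisson intervals as lines. Levels under 0.5 are drawn at 0.5, and open symbols stand for 0 UMIs. Arg1 is high in the BLM macrophages and in the ILC2 of both libraries, Arg2 in the neutrophils of both, and Retnla in C1q macrophages and cDC2.

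Alveolar macrophages, a class named after the resident phagocytes of the air spaces, showed the same for Arg1. The level was 448 CPM [421, 477] in BLM (989 UMIs) and 0.300 CPM [0.0363, 1.08] in naïve (2 UMIs), with a log2 ratio of 10.55 [8.69, 13.59]. The BLM cells of this class differed from the naïve ones in its own markers. Krt79 was 34.4 CPM in BLM against 486 in naïve, Cidec 32.2 against 391 and Siglecf 137 against 329. Marco at 713 against 341 and Car4 at 1445 against 720 went the other way. Whether the ratio compares the same kind of cell was not tested. Genes were also ranked by the lower end of the interval of their BLM to naïve ratio. Arg1 ranked 1 of 10297 genes in alveolar macrophages and 3 of 9362 in C1q macrophages. In mixed-marker macrophages, which had too few naïve cells for a ratio, 3129 BLM UMIs gave 1031 CPM [995, 1068], and none was counted in the 24 naïve cells. Intervals of C1q and mixed-marker macrophages overlapped in BLM, and that of alveolar macrophages lay below both.

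An Arg1 UMI was seen in 69.3% [64.6, 73.8] of BLM C1q macrophages, in 63.8% of BLM alveolar macrophages and in 76.9% of BLM mixed-marker macrophages. The naïve shares were 1.49%, 0.309% and 0%. B cells, which should not express Arg1, had a share of 5.64% in BLM (median depth 1683 UMIs, against 10004.5 in C1q macrophages) and 0 of 789 cells in naïve, with an upper limit of 0.466%. When each cell was thinned to 1000 UMIs, the BLM shares were 37.9% in C1q macrophages (14 shallower cells left out), 29.4% in alveolar macrophages (7 left out) and 2.89% in B cells (22 left out). The macrophage shares stayed at more than 10 times the B-cell share at equal depth.

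Arg1 was uneven among the injured macrophages. Of the 404 C1q macrophages in BLM, 124 had no Arg1 UMI, 150 lay below 1000 CPM, and the remaining 130, at 1000 CPM or more, held 86.3% of the Arg1 UMIs of the class. From the first to the last of these groups Chil3 was 1051, 2367 and 3766 CPM, and Spp1, which encodes the matrix protein osteopontin, was 3554, 5115 and 10968 CPM. Folr2, a folate receptor gene of resident interstitial macrophages, ran the other way at 299.7, 193 and 100.4 CPM, and Mrc1 was 1110, 809 and 767 CPM. Odc1, the next enzyme on the route to polyamines, was lowest where Arg1 was highest, at 388, 336 and 257 CPM. The arginine transporter gene Slc7a2 was 125, 190 and 287 CPM over the same groups. Median depth differed, at 7034, 11755 and 10892.5 UMIs, and the part of depth in these gradients was not tested. The other BLM macrophage classes differed in part over such groups. Mrc1 was 753, 810 and 825 CPM in alveolar and 634, 678 and 838 CPM in mixed-marker macrophages. Alveolar Chil3 was 13597, 15237 and 12830 CPM and Odc1 158, 126 and 150 CPM. Mixed-marker Chil3 was 5787, 7433 and 7499 CPM and Odc1 280, 199 and 186 CPM. Spp1 and Slc7a2 rose in both classes.

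Arg1 was also higher in BLM in monocytes and dendritic cells, but there it depended on cells that carried macrophage markers. Classical monocytes had 463 CPM [425, 503] in BLM (553 UMIs) and 1.23 CPM in naïve (1 UMI), a log2 ratio of 8.56 [6.08, 13.87], with a UMI in 22.2% of BLM cells. When cells with 3 or more macrophage markers were left out (80 of 212 BLM and 43 of 181 naïve cells), 14 BLM UMIs remained, 28.6 CPM, which is near the 27.5 CPM of BLM B cells, and the ratio was 4.09 on the log2 scale against 1 naïve UMI. Nonclassical monocytes behaved in the same way. Their log2 ratio of 5.59 [4.34, 7.24] came to 1.15 without such cells, and the BLM level to 23.6 CPM. This left out 59 of 197 BLM and 127 of 241 naïve cells, so most naïve cells carried such markers too. The ratio of 1.15 rested on 8 BLM and 4 naïve UMIs. In cDC2, the dendritic cells that prime helper T cells, 308 BLM UMIs gave 523 CPM [467, 585], against none in naïve, at least 121-fold higher in BLM. Without cells carrying macrophage markers the cDC2 level was 80.8 CPM and the bound came to 8-fold. That level was still above the one of B cells. Of the 308 BLM UMIs, 81 lay in 1 cell, and the 8 cDC2 with the most Arg1 UMIs held 89.3%. In cDC1, the cross-presenting dendritic cells, 116 of the 145 BLM UMIs lay in 1 cell. Without that cell the cDC1 were at 49.1 CPM. Without cells carrying 3 or more macrophage markers, 5 BLM UMIs remained, 19.7 CPM, which is below the level of BLM B cells.

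Neutrophils and lymphocytes gave low Arg1 levels. Neutrophils had 79.2 CPM [65.3, 95.1] in BLM, where 58 of the 114 UMIs lay in 1 cell and 39.0 CPM remained without it, against 1 UMI in naïve. By the lower end of the ratio's interval Arg1 still ranked 1 of 5932 genes in neutrophils. A UMI was seen in 3.64% of BLM neutrophils, which was below the B-cell share. T cells had 42 and 19 UMIs, with a log2 ratio of 0.81 [-0.00, 1.68]. Arg1 was also set against Spp1, another gene counted mostly in the injured macrophages. In BLM there were 14.2 Arg1 UMIs for each 100 Spp1 UMIs in C1q macrophages, 10.1 in alveolar macrophages and 25 in classical monocytes. The count was 48.7 [38.6, 61.2] in neutrophils, 31.9 [21.3, 46.7] in B cells, 22.6 in T cells, 42.1 in NK cells and 71.1 in migratory dendritic cells. Only cDC2 at 434 [334, 570] and ILC2 at 448 [277, 757] stood above 100 among the classes with 30 or more BLM cells. The cDC2 value rested on few cells, since 8 of 78 held 89.3% of their Arg1 UMIs.

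Group 2 innate lymphoid cells (ILC2), tissue lymphocytes that make IL-5 and IL-13 and are known to carry arginase 1 in resting lung, were the Arg1 cells of the naïve library. They were 85 of 3925 naïve cells and held 104 of the 170 naïve Arg1 UMIs (61.2%). Their level was 522 CPM [426, 632] in naïve and 705 CPM [570, 863] in BLM (94 UMIs in 34 cells). The log2 ratio was 0.44 [0.02, 0.85], and 21 of the 94 BLM UMIs lay in 1 cell, without which it was 0.28. A UMI was seen in 60.0% of naïve and 76.5% of BLM ILC2, and in 38.6% and 41.2% after thinning. As mean UMIs per cell, Arg1 was 2.76 in BLM and 1.22 in naïve ILC2, a log2 ratio of 1.18, with median depths of 3293.5 and 2257 UMIs, so the size of the ILC2 difference depended on the scale. On either scale ILC2 of both libraries expressed Arg1, and naïve macrophages had almost none. Most of the other naïve Arg1 UMIs lay in ungated cells (35) and T cells (19), and 13 of the 23 ungated and 6 of the 12 T cells concerned carried 3 or more ILC2 markers, against 30 of all 328 ungated and 35 of all 596 T cells.

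Arg2 belonged to neutrophils and was alike in the libraries. Neutrophils held 75.6% of its UMIs in BLM and 78.5% in naïve, at 474 CPM [440, 511] and 468 CPM [420, 519]. The log2 ratio was 0.02 [-0.17, 0.21]. A UMI was seen in 42.9% and 48.9% of neutrophils and, after thinning, in 35.3% and 35.6% (129 and 12 left out), against 0.829% and 0.760% of B cells (median depth 1683 and 1952 UMIs, and 1335 and 1588 in neutrophils). The 2 arginase genes were thus counted in different cells, the mitochondrial one in neutrophils and the cytosolic one in macrophages and ILC2. In classical monocytes Arg2 was 25.9 CPM in BLM and 12.3 CPM in naïve, from 31 and 10 UMIs, a log2 ratio of 1.08 [0.02, 2.27]. Nos2, the competing enzyme, was almost absent, with 9 UMIs in BLM and 2 in naïve over all kept cells, and at this depth no difference could be seen.

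Odc1, unlike the arginases, was counted in every class. The difference between libraries was largest in T cells, neutrophils and ILC2, not in the macrophages where that of Arg1 was large. In T cells it was 1457 CPM [1406, 1510] in BLM and 682 CPM [643, 723] in naïve, a log2 ratio of 1.09 [1.0, 1.19]. Among T cells, those with a UMI of Foxp3, the regulatory T cell factor, had 3025 CPM in BLM (82 cells) and 1244 CPM in naïve (20 cells), and those with neither Foxp3 nor 3 cycling genes had 1097 and 654 CPM. Regulatory T cells were thus the higher of these groups in both libraries, and both were higher in BLM. Neutrophils had a log2 ratio of 1.04 [0.77, 1.32], at 374 and 182 CPM, and ILC2 one of 0.83 [0.57, 1.09], at 1988 and 1119 CPM. The ratio was smaller in cDC1, at 0.40 [0.25, 0.54], and in alveolar macrophages, at 0.38 [0.18, 0.58]. C1q macrophages were the only class of the 11 with an interval below 0, at -0.34 [-0.60, -0.08], from 319 CPM in BLM and 406 CPM in naïve. The ratio was -0.01 [-0.31, 0.30] in C1q macrophages with a UMI of Folr2, the folate receptor gene, and -0.29 [-0.83, 0.31] in those without, 0.0056 with classes from clusters, and 0.78 as mean UMIs per cell. B cells showed no difference beyond counting error, at 646 and 594 CPM with a log2 ratio of 0.12 [-0.01, 0.25].

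Ass1, which recycles citrulline, was counted less often. In C1q macrophages 189 BLM UMIs gave 43.4 CPM [37.4, 50.1] and naïve had none, at least 4.78-fold higher in BLM. The naïve class summed to 330419 UMIs only, so that its count of 0 allows a level of up to 9.08 CPM (3 UMIs). Alveolar macrophages had 9.97 CPM in BLM (22 UMIs) and 3.15 CPM in naïve (21 UMIs), a log2 ratio of 1.66 [0.73, 2.60]. B cells were at 55.0 CPM [43.0, 69.3] in BLM and 27.7 CPM in naïve, so that the BLM level of C1q macrophages was no higher than that of B cells and the level of alveolar macrophages was lower. Neutrophils at 4.17 CPM and NK cells at 7.54 CPM were the lowest classes in BLM. In cDC2 the ratio was 1.28 [0.43, 2.18], and in T cells, at 111 and 58.1 CPM, 0.93 [0.58, 1.29]. Among T cells with a Foxp3 UMI the Ass1 level was 274 CPM in BLM and 279 CPM in naïve, and so alike, while in the T cells with neither Foxp3 nor cycling genes it was 75.6 and 42.6 CPM.

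**Figure D2:**
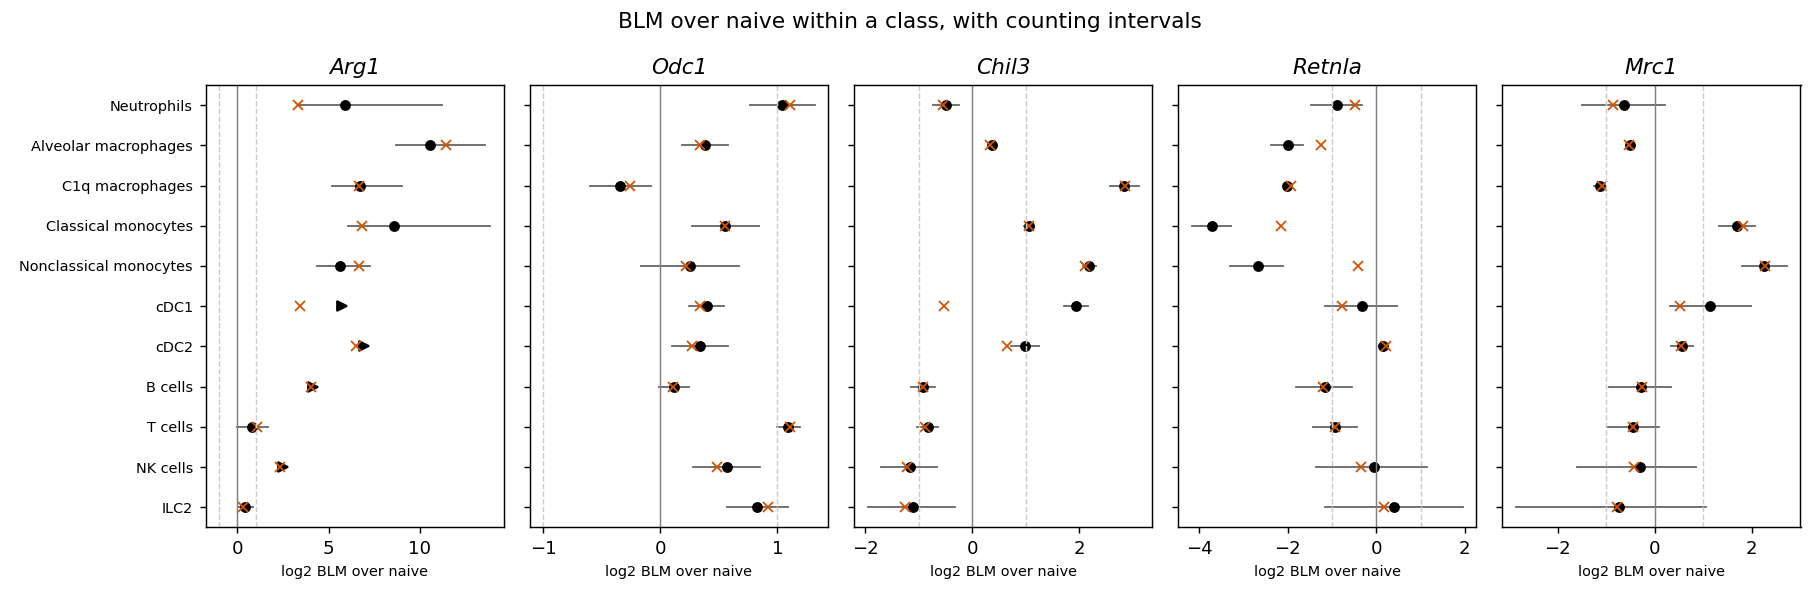
Log2 ratio of BLM to naïve (horizontal axis) for Arg1, Odc1, Chil3, Retnla and Mrc1 in the 11 classes compared, with 95% intervals that cover counting error only. Triangles are bounds where the naïve library held 0 UMIs, orange crosses leave out the cell with the most UMIs of the gene in each library, and dashed lines mark 2-fold. Arg1 lies to the right of 0 in all classes, and Retnla lies to the left in macrophages and monocytes but not in cDC2.

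Chil3 was a gene of alveolar macrophages in the naïve lung and was spread over more macrophages in BLM. Alveolar macrophages had 14370 CPM in BLM and 11071 CPM in naïve, a log2 ratio of 0.38 [0.36, 0.40], and nearly every cell had a UMI. They held 88.8% of all naïve Chil3 UMIs and 35.3% of those in BLM. In C1q macrophages the level was 2573 CPM [2526, 2621] in BLM (11204 UMIs) and 360 CPM [298, 431] in naïve (119 UMIs), with a log2 ratio of 2.84 [2.58, 3.11]. The naïve level was close to the 314 CPM [289, 340] of naïve B cells, and after thinning 31.4% of naïve C1q macrophages and 27.5% of naïve B cells had a UMI, and the intervals of the 2 levels overlapped. The share of C1q macrophages with a UMI was near 82% in both libraries before thinning (82.9% in BLM and 82.1% in naïve), and 44.0% and 31.4% after it. Chil3 has a near-identical neighbour, Chil4, and reads could have been split between them.

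Among monocytes Chil3 was 3075 CPM in BLM and 1478 CPM in naïve for the classical ones, a log2 ratio of 1.06 [0.96, 1.15], and 2767 and 607 CPM for the nonclassical ones, a ratio of 2.19 [2.06, 2.32]. Without cells carrying 3 or more macrophage markers these ratios were 0.49 and 0.69. In cDC1 579 of the 693 BLM UMIs lay in 1 cell, and the log2 ratio of 1.94 turned to -0.53 without it. In lymphocytes Chil3 was lower in BLM, with log2 ratios from -1.17 in NK cells to -0.84 in T cells. The level was 166 CPM in BLM and 314 CPM in naïve B cells, and alveolar macrophages made up 3.54% of the kept BLM cells and 16.5% of the kept naïve cells. The part of free RNA in these lymphocyte values was not tested.

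Retnla was lower in BLM in C1q macrophages, where Arg1 and Chil3 were higher. In C1q macrophages it was 1709 CPM [1670, 1748] in BLM (7440 UMIs) and 6918 CPM [6638, 7208] in naïve (2286 UMIs), 4.05-fold lower in BLM with a log2 ratio of -2.02 [-2.09, -1.95]. As mean UMIs per cell it was 18.4 in BLM and 34.1 in naïve, a log2 ratio of -0.89 and so within 2-fold. In cDC2 it was 4864 CPM [4687, 5045] in BLM and 4399 CPM [4245, 4558] in naïve, a log2 ratio of 0.14 [0.07, 0.22], and thus almost alike. Without cells carrying 3 or more macrophage markers the cDC2 levels were 1691 CPM in BLM and 1760 CPM in naïve. B cells had 22.2 CPM in BLM and 49.7 CPM in naïve. Over all kept cells Retnla was alike, at 649 and 643 CPM. Over the 3 macrophage classes together it was higher in BLM, at 1044 against 637 CPM, and Chil3 was lower, at 6735 against 10424 CPM. C1q macrophages were 404 of those 819 cells in BLM and 67 of 739 in naïve, and alveolar macrophages 160 and 648.

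Retnla was concentrated in few cells, and its ratios depended on how many of these each library held. In BLM C1q macrophages the median cell had 0 CPM, the highest had 70287 CPM, and the 41 cells with the most Retnla held 96.9% of the UMIs, and in naïve the top 7 of 67 cells held 79.6%. Cells at 1000 CPM or more were 46 of 404 (11.4%) in BLM C1q macrophages and 17 of 67 (25.4%) in naïve ones. Among cDC2 they were 9 of 78 and 11 of 99, and among alveolar macrophages 0 of 160 and 4 of 648. The high cDC2 held 99.2% and 98.9% of the Retnla UMIs of their class. The cDC2 marker Cd209a was lower in them than in the other cDC2, at 236 against 861 CPM in BLM and 534 against 2593 CPM in naïve. The macrophage marker C1qa was higher, at 480 against 106 CPM and 95.4 against 23.7 CPM. In BLM the high cDC2 also held 171 of the 308 Arg1 UMIs of their class. Whether these cells are cDC2 was not tested. Within the Retnla-high C1q macrophages the summed level was 15431 CPM in BLM and 24609 CPM in naïve. The lower BLM level in CPM thus went with a smaller share of high cells and with a lower CPM in them. The high cells held 7257 Retnla UMIs in BLM and 2268 in naïve, at median depths of 8915.5 and 5696 UMIs. As mean UMIs per cell, Retnla in the high cells was not lower in BLM. Where a class held few high cells, 1 cell decided the value. In naïve alveolar macrophages 367 of 850 UMIs lay in 1 cell (log2 ratio -2.01, -1.24 without it, and 0.42 with classes from clusters), in naïve classical monocytes 293 of 430 (-3.71 and -2.16), and in naïve nonclassical monocytes 218 of 271 (-2.68 and -0.42).

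The resident interstitial gene Folr2 divided the C1q macrophages for Retnla. Cells with a Folr2 UMI were 122 of 404 in BLM and 47 of 67 in naïve. In these cells Retnla was 3703 CPM in BLM and 9203 CPM in naïve, a log2 ratio of -1.31 [-1.38, -1.24]. In the cells without a Folr2 UMI it was 651 and 730 CPM, a ratio of -0.16 [-0.52, 0.22]. Arg1 was high in BLM on both sides of this division and somewhat higher in cells without a Folr2 UMI. Its log2 ratio was 5.92 [4.37, 8.2] in cells with Folr2, at 752 CPM [708, 797] in BLM, and at least 5.02 in those without, at 1089 CPM [1051, 1128] in BLM. Chil3 had ratios of 1.63 [1.31, 1.97] and 3.03 [2.56, 3.53], and so the larger one in cells without a Folr2 UMI. Mrc1 had ratios of -0.80 [-0.94, -0.66] and -0.33 [-0.68, 0.04], both within 2-fold. Folr2 was 1 of the markers used to define the class, and a cell without a UMI may still express it.

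Some injured C1q macrophages had much of both Retnla and Arg1. Of the 46 Retnla-high C1q macrophages in BLM, 20 (43.5% [28.9, 58.9]) also had Arg1 at 1000 CPM or more, against 30.7% [26.0, 35.8] of the other C1q macrophages, and the intervals overlapped. High Retnla therefore did not mark C1q macrophages free of Arg1. In mixed-marker macrophages of BLM, 2 of 11 Retnla-high cells (18.2% [2.28, 51.8]) and 36.1% [30.04, 42.4] of the rest had high Arg1, and Retnla was 1773, 949.6 and 216 CPM in cells with no Arg1 UMI, below 1000 CPM of Arg1, and at 1000 CPM or more. Against the rest of their class, the Retnla-high C1q macrophages had 2109 against 709 CPM of Mrc1, 789 against 86.8 CPM of the scavenger receptor gene Cd163, and 595 against 134 CPM of Folr2. Mgl2 and Clec10a, lectin genes of the alternatively activated state, were 842 against 111 CPM and 529.5 against 29.4 CPM. Both also served as cDC2 markers, as did Cd209a, which was 128 against 2.06 CPM. Spp1 was 1131 against 7527 CPM, so it was lower in the Retnla-high cells even though Arg1, at 1261 against 937 CPM, was not lower. In naïve C1q macrophages, Retnla-high cells against the rest had Mgl2 at 1226 against 1284 CPM, and so no higher. Clec10a was 445 against 155 CPM there and Cd209a 184 against 21.0 CPM. Whether all Retnla-high cells of this class are macrophages was not tested.

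**Figure D3:**
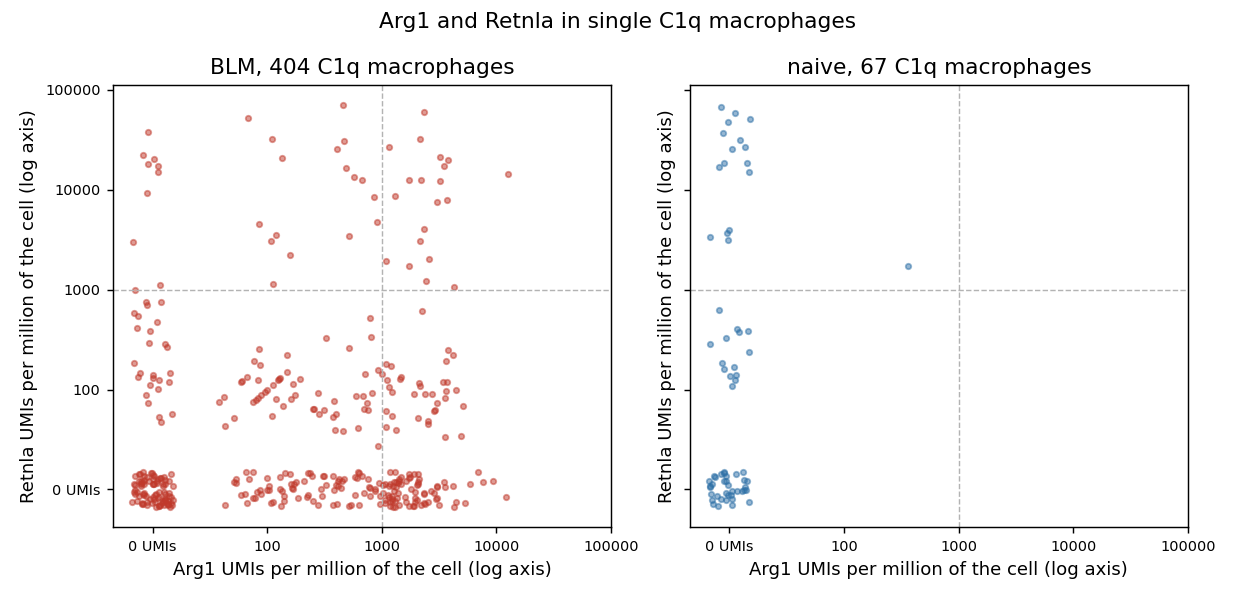
Arg1 (horizontal axis) against Retnla (vertical axis) in single C1q macrophages, both in counts per 1000000 UMIs of the cell on log scales, with cells at 0 UMIs set apart and spread for display. Dashed lines mark 1000 CPM. In BLM 20 cells lie above both lines, and in naïve none does, since only 1 naïve cell had an Arg1 UMI.

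Mrc1 was lower in the BLM macrophages per UMI counted, and higher in the BLM monocytes as gated. C1q macrophages had 860 CPM [833, 888] in BLM and 1889 CPM [1743, 2043] in naïve, a log2 ratio of -1.14 [-1.26, -1.01], and alveolar macrophages had 794 and 1136 CPM, a ratio of -0.52 [-0.59, -0.44]. After thinning a UMI was seen in 46.5% of BLM and 75.7% of naïve C1q macrophages, against 3.02% and 3.15% of B cells. The C1q macrophages of the 2 libraries differed in depth (median 10004.5 and 4797 UMIs), and as mean UMIs per cell Mrc1 was 9.27 in BLM and 9.31 in naïve. The drop was thus one relative to the RNA counted per cell. It came within 2-fold, at -0.92, with classes from clusters and, at -0.93, with a size factor. In classical monocytes Mrc1 was 288 CPM in BLM and 89.5 CPM in naïve, a log2 ratio of 1.69 [1.32, 2.07], and in nonclassical monocytes 234 and 49.2 CPM, a ratio of 2.25 [1.8, 2.72]. Without the cells carrying 3 or more macrophage markers these ratios were -1.20 and 0.04, at levels from 28.6 to 65.6 CPM, and neither increase remained. In cDC2 Mrc1 was 636 and 432 CPM, a ratio of 0.56 [0.33, 0.78].

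**Figure D4:**
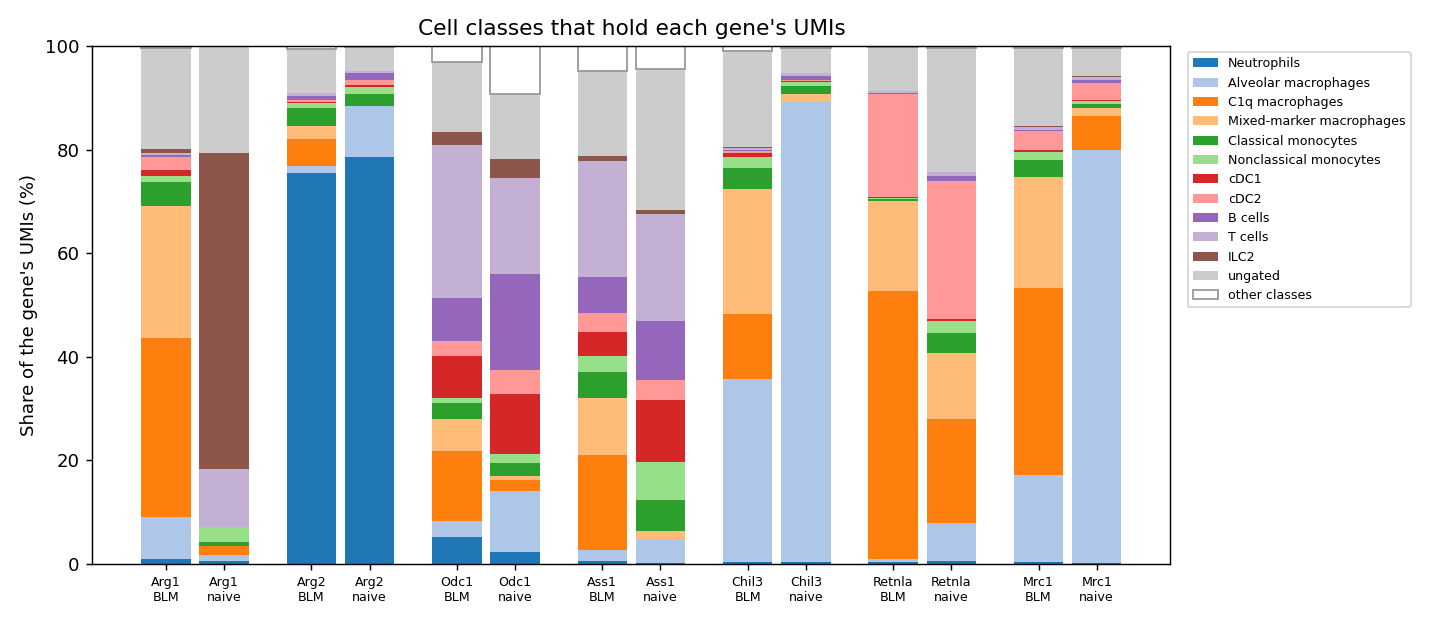
Share of the UMIs of each gene except Nos2 (percent of all its UMIs in the kept cells of a library) by cell class, for BLM and naïve. Naïve Arg1 lies mostly in ILC2 (61.2%) and BLM Arg1 mostly in macrophages (68.2% over 3 classes), while Arg2 lies in neutrophils in both libraries.

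Counted over the genes with 20 or more UMIs in both libraries of a class together, and with 2-fold as the limit, the members moved most in macrophages and monocytes. In C1q macrophages 3 of 7 members were higher in BLM (Arg1, Ass1 and Chil3) and 2 lower (Mrc1 and Retnla), beside 11.4% and 14.2% of all genes. In alveolar macrophages Arg1 and Ass1 were higher and Retnla lower, of 7, beside 3.87% and 10.6% of all genes. Classical monocytes had 4 of 7 higher (Arg1, Arg2, Chil3 and Mrc1) and Retnla lower, beside 9.34% and 4.61%. Nonclassical monocytes had 3 of 6 higher (Arg1, Chil3 and Mrc1) and Retnla lower, beside 6.85% and 4.55%. The monocyte and alveolar counts include the values above that rest on cells with macrophage markers, on 1 cell or on the way the classes were made. Neutrophils had Arg1 and Odc1 higher of 6 and none lower, beside 4.89% and 5.98%, and cDC2 had Arg1 and Ass1 higher of 6 and none lower, beside 6.38% and 6.61%. In T cells Odc1 alone of 6 was higher and none lower, beside 3.73% and 3.84%. ILC2 had none of 3 higher and Chil3 lower, beside 5.76% and 8.66%.

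The rest of the arginine pathway had a median near that of all genes in C1q macrophages. Of 26 genes of arginine transport, supply and breakdown, 18 had 20 or more UMIs, 4 were over 2-fold higher in BLM (Slc7a2, Slc7a7, Aldh18a1 and Slc25a15) and 1 lower (Ddah2), with a median log2 ratio of -0.10 beside -0.09 over all genes. Over all genes 11.4% were past 2-fold higher and 14.2% lower, and 2 of the 4 higher genes, Aldh18a1 and Slc25a15, had intervals that held 0 on 1 and 2 naïve UMIs. Slc7a2, which brings arginine into the cell, was 210 CPM in BLM and 24.2 CPM in naïve, a log2 ratio of 3.12 [2.13, 4.33]. The exporter gene Slc7a7 had a ratio of 1.42 [0.36, 2.75]. Ddah2, whose enzyme clears methylated arginine, was -2.40 [-3.85, -0.74], and Oat, which turns ornithine toward proline and glutamate, -0.63 [-1.05, -0.17]. Slc3a2, the heavy chain of several amino acid transporters, was -0.29 [-0.55, -0.03]. In alveolar macrophages 1 of 18 was higher (Gatm, the first enzyme of creatine synthesis, 78.8 against 8.69 CPM, log2 ratio 3.18 [2.74, 3.64]) and 1 lower (Ddah1), with a median of 0.01 beside -0.20 over all genes. Over all genes 3.87% were past 2-fold higher and 10.6% lower there. Slc7a2 was already high there in naïve, at 313 CPM, and 453 CPM in BLM, a ratio of 0.54 [0.42, 0.64]. Gch1, which starts the synthesis of the nitric oxide synthase cofactor, was 0.86 [0.55, 1.17] there.

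Polyamine genes leaned higher in C1q macrophages. Of 16 genes, 14 had 20 or more UMIs, 5 were over 2-fold higher (Amd1, Srm, Sms, Smox and Dhps) and none was lower. Over all genes 11.4% were past 2-fold higher and 14.2% lower. The median log2 ratio was 0.56 beside -0.09 over all genes, although the interval cleared 0 for only 2 of the 5. Those were Sms, the spermine synthase gene, at 2.20 [0.63, 4.49] from 182 and 3 UMIs, and Smox, the spermine oxidase gene, at 1.07 [0.30, 1.95]. Eif5a, whose protein is modified with spermidine, was 974 and 566 CPM, a ratio of 0.78 [0.57, 1.0], and Azin1, which shields ornithine decarboxylase, was -0.78 [-1.21, -0.33]. In alveolar macrophages the oxidase genes Smox at 1.38 [1.04, 1.72] and Paox at 1.42 [0.75, 2.08] were higher, and Amd1 at -1.23 [-2.19, -0.38] and Oaz2 at -1.24 [-2.16, -0.43] lower. Of the polyamine transport genes, Atp13a2 was 0.60 [0.39, 0.81] and Atp13a3 -0.90 [-1.13, -0.68]. The median of the 14 genes was 0.09, beside 3.87% and 10.6% of all genes past 2-fold.

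Other genes of alternative activation were lower more often than higher in the macrophages with Arg1. Of a list of 31, 30 were in the tables and 28 had 20 or more UMIs in C1q macrophages. There 4 were over 2-fold higher in BLM (Ccl8, Egr2, Tgm2 and Chil4, the last on 1 naïve UMI with an interval that held 0) and 11 lower, beside 11.4% and 14.2% of all genes, with a median log2 ratio of -0.70, and without the 6 genes that also served as class markers 4 were higher and 7 lower of 22, with a median of -0.54. Tgm2, a transglutaminase gene, was 505 against 54.5 CPM, a ratio of 3.21 [2.55, 3.97], the chemokine gene Ccl8 was 2.78 [2.35, 3.24], and the transcription factor gene Egr2 was 1.96 [1.02, 3.10]. Cd163 at -2.43 [-2.63, -2.22], Mgl2 at -2.74 [-2.91, -2.56] and the chemokine gene Ccl22 at -3.46 [-4.14, -2.77] were the lowest by the interval. In alveolar macrophages the list had 3 higher and 9 lower of 24, beside 3.87% and 10.6% of all genes. The median was -0.22 beside -0.20 over all genes. Without the class markers 3 were higher and 5 lower of 18, and the median was 0.15. The growth factor gene Igf1 was 198 against 35.8 CPM there, a ratio of 2.47 [2.24, 2.70], Ccl17 was 3.68 [3.29, 4.09], and the lipid scavenger receptor gene Cd36 was -2.80 [-3.02, -2.59]. Cish, a cytokine feedback gene, was 1.11 [0.72, 1.49], and the lectin genes Mgl2 and Cd209a, both also class markers, were -3.22 [-4.55, -2.15] and -3.47 [-6.54, -1.56]. In classical monocytes the list had 9 higher and 3 lower of 21, beside 9.34% and 4.61% of all genes, with a median of 0.38 (8 and 2 of 16 with a median of 1.08 without class markers), and 80 of the 212 BLM cells of that class carried 3 or more macrophage markers. In neutrophils it had 5 higher and none lower of 19, beside 4.89% and 5.98% of all genes, with a median of 0.50.

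Genes of classical activation, the state driven by interferon and bacterial products, were no mirror image. In C1q macrophages 2 of 17 were over 2-fold higher (Ptgs2, and Cxcl9 on 1 naïve UMI with an interval that held 0) and 7 lower, beside 11.4% and 14.2% of all genes, with a median log2 ratio of -0.67 beside -0.09 over all genes. Il6 was -1.60 [-2.06, -1.12], the costimulatory gene Cd40 -2.35 [-3.08, -1.57], and Ptgs2, the inducible cyclooxygenase gene, 1.08 [0.69, 1.51]. The cytokine feedback gene Socs3 was -1.86 [-2.10, -1.61]. In alveolar macrophages 5 of 16 were higher and 5 lower, beside 3.87% and 10.6% of all genes, with a median of 0.0013. The cytokine gene Il1b was 1650 against 194 CPM there, a ratio of 3.09 [3.0, 3.18], and the interferon-induced chemokine gene Cxcl9 was -3.94 [-7.01, -2.05] on 2 and 93 UMIs. The costimulatory gene Cd86 was 1.60 [1.15, 2.04] and the chemokine gene Cxcl10 2.02 [1.61, 2.43], while the chemokine gene Ccl5 was -1.12 [-1.58, -0.68] and the formyl peptide receptor gene Fpr2 -1.41 [-1.54, -1.28]. Both activation lists therefore had a lower median in BLM C1q macrophages, and both had members that were higher.

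Among 9 regulators of Arg1 known from cultured macrophages, 1 was over 2-fold higher and 1 lower in C1q macrophages. Over all genes of the class 11.4% were past 2-fold higher and 14.2% lower, so the counts were near these shares. The hypoxia factor gene Hif1a was 143 against 54.5 CPM, a log2 ratio of 1.39 [0.72, 2.15], and 1.26 [1.03, 1.49] in alveolar macrophages. Stat3 was -1.67 [-1.94, -1.39], and Stat6, the factor downstream of IL-4 and IL-13, -0.65 [-1.13, -0.12]. Cebpb was 0.51 [0.31, 0.73] and Klf4 -0.28 [-0.49, -0.07]. In alveolar macrophages Ppargc1b, a coactivator gene, was -1.89 [-3.06, -0.91], Stat3 -1.0 [-1.19, -0.81], Irf8 -0.63 [-0.88, -0.38] and Cebpb 0.22 [0.15, 0.29]. Among 8 genes of the signals themselves, 6 had 20 or more UMIs in C1q macrophages. Csf2rb, the shared receptor chain for GM-CSF, was 846 against 224 CPM, a ratio of 1.92 [1.59, 2.27], and Csf1r, the receptor for M-CSF, was 706 against 1646 CPM, -1.22 [-1.35, -1.09]. Csf2ra was 0.59 [0.36, 0.82], and Il13ra1, a receptor chain for IL-13, -0.77 [-1.40, -0.07]. In alveolar macrophages none of 6 passed 2-fold in either direction, beside 3.87% higher and 10.6% lower of all genes. Csf1r was 0.97 [0.82, 1.12] there, Il4ra 0.42 [0.14, 0.69] and Csf2rb 0.37 [0.30, 0.43].

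**Figure D5:**
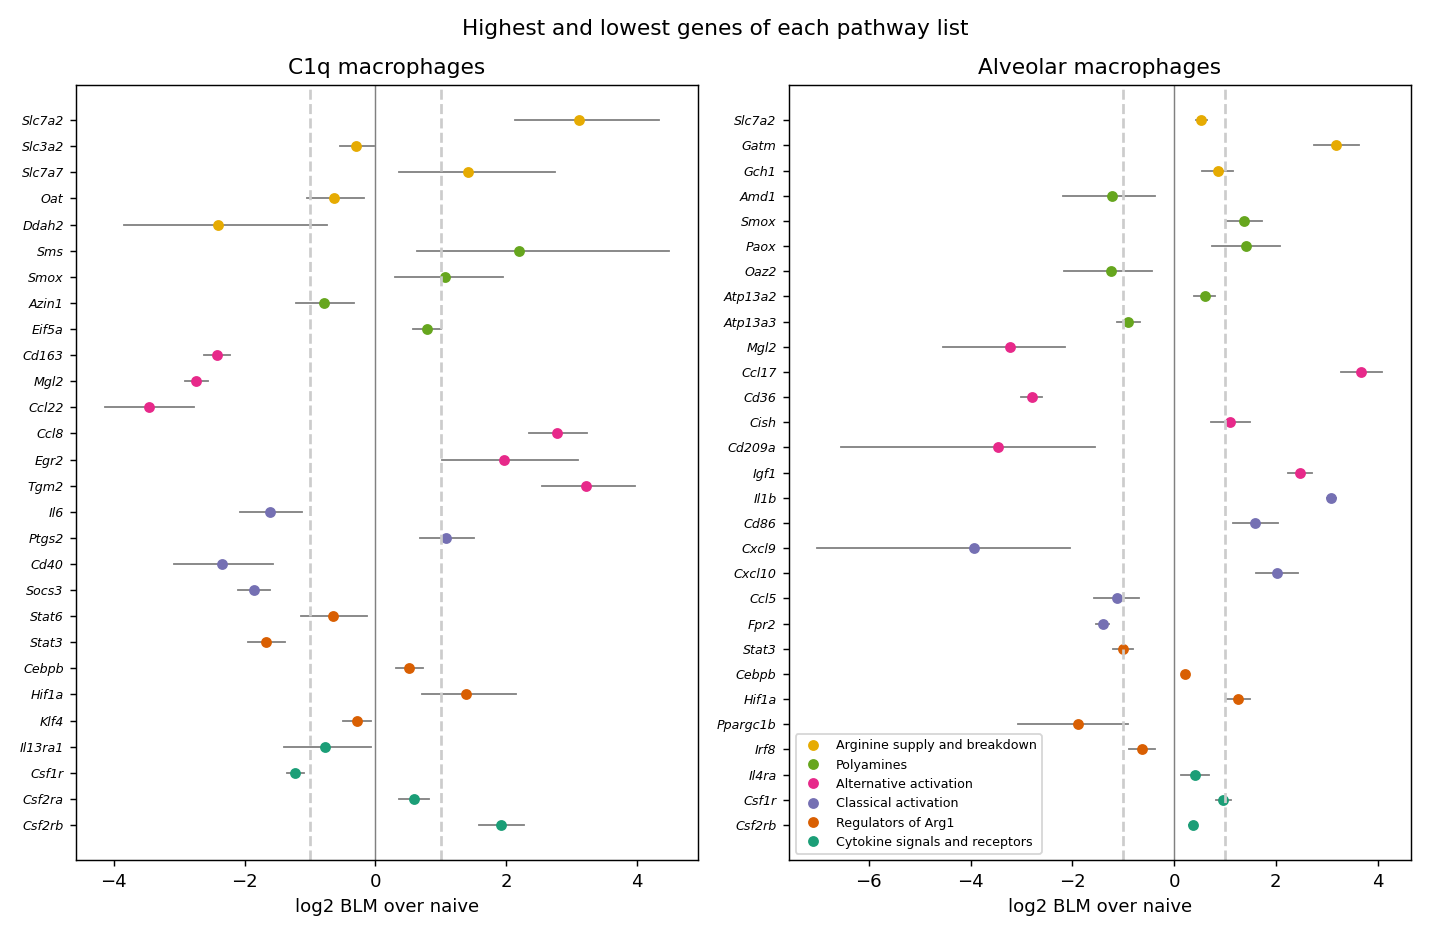
Log2 ratio of BLM to naïve (horizontal axis), with 95% intervals that cover counting error only, for the highest and lowest genes of each list in C1q and alveolar macrophages. Slc7a2 and Tgm2 are the highest of their lists in C1q macrophages and Gatm and Ccl17 in alveolar macrophages, while Ccl22 and Mgl2 are among the lowest.

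To place the members among all genes, class levels were correlated on the log2(CPM + 10) scale over the 25 class sums with 30 or more cells, against 9816 candidate genes. These points share libraries and lineages, so the values are descriptions. Closest to Retnla were Fcrls (r = 0.96), Clec10a (0.89) and Mgl2 (0.85), and to Chil3 they were Chil4 (0.96), Atp6v0d2 (0.94) and Tfec (0.93). Clec10a, Mgl2 and Atp6v0d2 were also class markers, so their r is not independent of how the classes were made. The r of Chil4 may in part come from reads split between it and Chil3, which was not tested. Arg2 was closest to the neutrophil genes Rhov, Lcn2 and Nlrp12 (each 0.97), and Mrc1 to Tmem141 (0.95) and Dab2 (0.91). Odc1 was closest to Gna13 (0.87) and Ass1 to the ribosomal gene Rps27a (0.81). Arg1 was closest to Usmg5 (0.85) and Cd200r1 (0.77). Of the 5 nearest genes of Arg1, only Cd200r1 was again among the nearest when the 14 BLM class sums were taken alone.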

How the data were processed

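Living CD45+ lung cells of 3 pooled mice per group were sequenced as 1 BD Rhapsody library per group. The deposited values are UMI counts per cell and gene, which the authors made with the BD Rhapsody WTA pipeline (version 1.8, GRCm38 with GENCODE M19, per the file headers). No normalization was applied by the authors to these tables, and they were used as deposited, with 0 columns of other samples. A gene missing from 1 table was set to 0. Gene positions are from GENCODE vM21 of the same build. Whether counting used strand is not given in the sources used here.

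The members and lists were chosen with earlier results of these data known. Barcodes with fewer than 200 genes, or with over 15% of UMIs from mitochondrial genes, were dropped. Each cell was given the class whose marker list had the largest share of genes with a UMI, with at least 3 markers and a lead of 0.1 over the next list, and a Ly6c2 UMI was needed for classical monocytes. Cells with 4 or more markers of a foreign lineage stayed ungated. This scoring rule was set after the data had been seen. Doublets were removed only by that rule. Scrublet (in scanpy 1.11.5) called 8 BLM cells (0.177%) and 61 naïve cells (1.55%), too few in BLM for its calls to be used, and its highest 3% (135 and 117 cells) were left out as an alternative.

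UMIs were summed per class and library and divided by the class total (counts per 1000000, CPM). A class with 0 UMIs was set to a floor of 3 UMIs for a bound. With 1 library per group no test was run, and a gene was called when past 2-fold. Shares were also computed with each cell thinned to 1000 UMIs. All 8 genes are named in the text, and of each list and macrophage class the 3 highest and 3 lowest ratios, by the interval end nearer 0, among genes with 20 or more UMIs. One gene of the classical activation list was left out and is not reported here. Some other genes past 2-fold in a list were named besides, after their values were seen. Likeness was computed for genes with 200 or more UMIs. Clec7a of the alternative activation list is in neither table. Scripts were tested on simulated data. Leaving out cells with macrophage markers from other classes, and leaving out the top cell, were added after seeing the data. Marker lists of other cells the sort could hold gave, for stromal and epithelial genes, summed levels from 38.3 to 225 CPM in the 11 classes compared, and hemoglobin genes 0 and 2 UMIs in BLM and naïve.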

Additional observations from a re-analysis of the deposited data

Results flagged for a closer look

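Mrc1 moved in opposite directions in different classes of the same 2 libraries. Its log2 ratio of BLM to naïve was -1.14 in C1q macrophages, 1.69 in classical monocytes and 2.25 in nonclassical monocytes. With 1 library per group the difference between the classes was not tested. Without cells carrying 3 or more macrophage markers, the monocyte ratios were -1.20 and 0.04.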

How the results depend on the processing

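No paired analysis was possible because each group is 1 library. Under 8 planned changes and 2 added ones, 77 ratios gave 753 alternative values, of which 637 stayed within their counting interval, 106 moved out of it and 10, from ratios past 2-fold, reversed. Of the 332 alternative values of the 34 ratios past 2-fold, 322 kept their sign. Reversed were Chil3 in cDC1 (-0.80 with classes from clusters, -0.46 with a lead of 0.2, -1.02 without cells carrying macrophage markers, -0.53 without the top cell), Mrc1 in cDC1 (-0.12 with a lead of 0.2, -0.35 without macrophage markers), Mrc1 in classical monocytes (-1.20 without macrophage markers), Mrc1 in nonclassical monocytes (-0.46 from clusters), Retnla in alveolar macrophages (0.42 from clusters) and Ass1 in neutrophils (-0.51 without the top cell, on 7 UMIs in all). The cause of the cluster and lead values was not tested. Clusters gave no cDC2 class to compare, and ratios against 0 UMIs had no mean of cell CPM.

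Retnla in C1q macrophages stayed lower in BLM, at -2.10 with 10% mitochondrial UMIs, -2.79 from clusters, -1.16 with the wider lead, -0.89 per cell, -1.81 with a size factor, -1.83 as the mean of cell CPM and -1.93 without the top cell. Mrc1 in C1q macrophages was -0.92 from clusters, -0.0072 per cell, -0.93 with a size factor and -1.0 as the mean of cell CPM. Odc1 in T cells was 1.27 with 10% mitochondrial UMIs and 1.20 with the wider lead. Chil3 in classical monocytes was 0.86 with the wider lead, 0.49 without macrophage markers, 1.38 per cell and 0.80 as the mean of cell CPM, and Arg1 there was 4.09 without macrophage markers. Per cell, Arg1 in ILC2 was 1.18 and Arg2 in neutrophils -0.20. The shift between the CPM scale and the size factor was a median log2 ratio over part of the genes. It was -0.21 over 2824 genes in C1q macrophages, -0.13 over 7604 in alveolar macrophages and -0.12 over 3730 in neutrophils.

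With intervals off 0 in place of 2-fold, the alveolar counts were 5 for arginine supply, 8 for polyamines, 19 for alternative activation, 8 for regulators and 4 for signals, and the C1q counts 6 for regulators and 4 for signals. With 1 or more UMIs the arginine list had 8 in C1q macrophages. No share of all genes under these other rules stands beside the counts, so the counts say nothing particular about the lists. The naïve C1q class, with 67 cells, limits what was detectable.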
